A study of Mus musculus with 6 samples.

Results

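The ubiquitin-specific proteases (USPs) were examined in liver mRNA of mice given a high-fat diet with or without an herbal extract. The table of 23474 genes listed 48 USP symbols once Usp18, which the selection left out, was set aside. The 35 with a mean of at least 1 FPKM over the 6 libraries (fragments per kilobase of transcript, scaled to sequencing depth) were taken as members, whatever their response, and the other 13 lay below that level. All 35 are annotated as protein-coding genes. The mice were male C57BL/6J, aged 17 weeks when sampled, and had been on their diets for 12 weeks from 5 weeks of age. The BT group received the high-fat diet containing 1.5% (w/w) Bangpungtongseong-san extract, and the HFD group the high-fat diet alone. Both groups therefore ate a high-fat diet, and no lean or chow-fed group was part of the comparison. The study divided 20 mice into 2 groups of 10, and 3 BT libraries and 3 HFD libraries were analysed. Whether each library came from 1 mouse or from pooled mice is not labelled, and p-values therefore measure only the spread among the 6 libraries.

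USPs are the largest family of deubiquitinases, enzymes that remove ubiquitin from proteins. Ubiquitin chains mark proteins for breakdown by the proteasome or change their location and partners, and a USP can rescue its substrate from that fate or recycle the ubiquitin. Most USPs are cysteine proteases with a shared catalytic fold and differ in the added domains that choose substrates. In liver, members of the family are known for acting on clock proteins, on p53 and its ligase MDM2, on enzymes and regulators of lipid synthesis, and on histones. The roles given below are background, mostly from work in human and mouse cells. mRNA levels say nothing of protein amount or enzyme activity.

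Promoter windows from RefSeq (GRCm38.p6, 250 bases before to 50 after a start site) are shown for the 2 members that passed the test, Usp2 and Usp28, and for Usp21, the member with the lowest change and a relative of Usp2. They are written 5′ to 3′ along the gene, with capitals marking the GC box GGGCGG on either strand.
Usp2 promoter, chr9:44084670-44084969, plus strand: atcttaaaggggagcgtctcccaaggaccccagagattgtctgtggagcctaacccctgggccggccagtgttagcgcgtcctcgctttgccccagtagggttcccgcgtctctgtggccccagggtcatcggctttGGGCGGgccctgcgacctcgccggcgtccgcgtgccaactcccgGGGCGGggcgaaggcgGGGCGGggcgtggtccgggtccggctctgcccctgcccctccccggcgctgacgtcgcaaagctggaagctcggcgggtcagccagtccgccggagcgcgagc
Usp28 promoter, chr9:48985135-48985434, plus strand: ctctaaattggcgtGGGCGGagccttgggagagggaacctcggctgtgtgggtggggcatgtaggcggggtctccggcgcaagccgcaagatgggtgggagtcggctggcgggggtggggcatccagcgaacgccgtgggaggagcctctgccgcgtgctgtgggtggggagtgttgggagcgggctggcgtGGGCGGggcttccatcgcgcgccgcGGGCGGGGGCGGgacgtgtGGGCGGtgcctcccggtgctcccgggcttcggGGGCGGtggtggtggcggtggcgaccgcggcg
Usp21 promoter, chr1:171287912-171288211, minus strand: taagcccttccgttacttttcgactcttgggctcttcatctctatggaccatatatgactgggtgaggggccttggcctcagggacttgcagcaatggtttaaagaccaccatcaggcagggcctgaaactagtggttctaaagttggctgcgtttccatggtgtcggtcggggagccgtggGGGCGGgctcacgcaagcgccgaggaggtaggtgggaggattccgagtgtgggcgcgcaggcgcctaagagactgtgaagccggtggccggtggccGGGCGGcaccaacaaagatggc
The GC box, the core letters bound by SP-family factors, occurred 3 times in the Usp2 window, 6 times in that of Usp28 and 2 times in that of Usp21. The Usp2 window lies inside the gene, 17899 bases downstream of the first annotated start and 19 bases from the nearest other annotated transcript start. Of its 300 bases, 31 were in annotated exons and the rest in introns of the longer transcripts. The gene-level FPKM does not separate transcripts that begin there from those that begin further upstream. The start sites of the Usp28 and Usp21 windows fall on annotated transcript starts (distance 0 in both). Windows were found for 27 of the 35 members. GGGCGG was present in 22 of these 27, against 61.7% of the 10556 windows of genes tested and 35.7% of all 32851 windows. CGGAAG, the core letters of ETS-family sites, was present in 12 of 27, against 31.7% of windows of genes tested. The E-box CACGTG, bound by CLOCK and BMAL1, was present in 3 (Usp4, Usp16 and Usp32), against 10.2%, and the D-box TTATGTAA or TTACGTAA, bound by DBP and TEF, in 0, against 0.805%. These are matches of letters on both strands, which can overlap, and not sites of binding. Member windows had a median of 33 CpG dinucleotides, against 20 in windows of genes tested.

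Across the table, 1398 of 10476 genes tested (13.3%) differed between BT and HFD, 6.01% higher and 7.33% lower (limma on log2(FPKM + 1), Benjamini-Hochberg adjusted p under 0.05). With median-of-ratios scaling 459 were higher and 862 lower, against 630 and 768 here. With TPM scaling 614 were higher and 557 lower, so which direction held more genes depended on the scaling. Without HFD replicate 2, BT replicate 1, BT replicate 2 or BT replicate 3 the number called was 621, 173, 324 and 589. Depth was roughly 13.8 to 15.8 M fragments per library, estimated from the smallest values. At that depth a member rested on roughly 63 to 3325 fragments in a library, fewest for Usp35 and most for Usp9x, so counting error is largest for the low members. All 10 hepatocyte markers checked were in the table, of which Ttr and Apoa2 fell, and Alb is listed at 0 in HFD replicate 3. A 0 here can be a failed estimate. Summed levels of 7 stellate cell markers were 75.5 to 94.2 FPKM in BT and 97.7 to 144 FPKM in HFD libraries, with Lrat at 0 throughout, and 0 of the 6 tested passed. Summed levels of 4 pancreas markers were 2.45 to 4.09 FPKM in BT and 5.09 to 6.25 FPKM in HFD libraries, with Amy2a5, Cpb1 and Pnlip at 0 throughout and Cela1 lower with BT. The other marker lists overlapped between the diets, and the part of any of them in the results below was not tested. Fewer cells of a type and less RNA per cell cannot be told apart in whole tissue.

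Of the 35 USPs, 2 rose with BT and 0 fell, which is 5.71% of the members against 13.3% of all genes tested. Usp2 rose by 1.13 on the log2 scale and Usp28 by 0.54. At an unadjusted p under 0.05, 11 members were higher and 0 lower, against 18.1% and 14.4% of all genes tested. The direction was nonetheless shared: 30 of the 35 changes were positive, against 59.2% of all genes tested, and the median change was 0.24, against 0.07 over all genes. TPM scaling gave 33 positive changes with medians of 0.33 and 0.15, and median-of-ratios scaling 29 with medians of 0.18 and 0.01. The 3 BT values lay above the 3 HFD values without overlap in 17 members and below them in 0. Among all genes tested, 23.2% were without overlap above and 16.1% below. The 95% interval of the change included 0 for 24 members and lay above 0 for 11, of which 9 did not pass after adjustment. Standard errors of the changes ran from 0.11 to 0.21, and a change of the median size could not be told from 0 with 3 libraries a group.

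**Figure D1:**
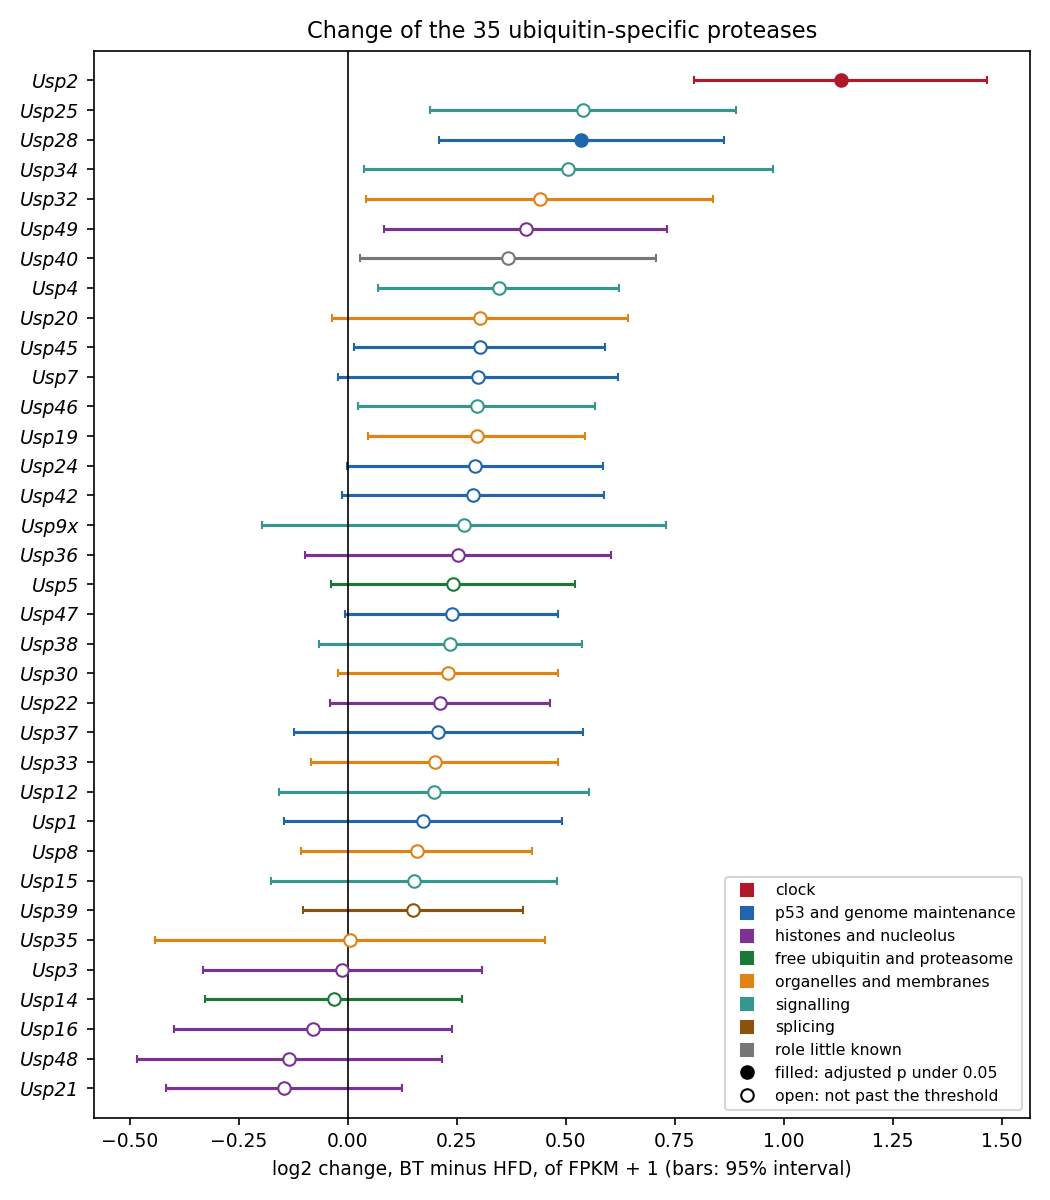
Log2 change (BT minus HFD) of FPKM + 1 for each of the 35 USPs with its 95% interval from limma, coloured by role, with filled points for adjusted p under 0.05. Usp2 stands at 1.13, and 24 of the 35 intervals include 0.

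Usp2, an output gene of the circadian clock whose protein removes ubiquitin from clock proteins, MDM2 and cyclin D1, had the largest change. It lies at chr9:44067021-44095627 (GRCm38). Its level was 13.4, 18.1 and 13.2 FPKM in BT replicates 1 to 3, against 5.42, 6.75 and 6.49 FPKM in HFD replicates 1 to 3. Every BT library was thus well above every HFD library, and the lowest BT value was 13.2 FPKM. The means were 14.9 ± 2.79 FPKM in BT and 6.22 ± 0.706 FPKM in HFD (SD, n = 3 each), a ratio of 2.396. The log2 change was 1.13 ± 0.15 (SE), with a 95% interval of 0.79 to 1.47 and adjusted p = 0.00644 by limma. When each library was left out in turn, the change ran from 0.99 to 1.20 and the adjusted p from 0.0123 to 0.0279. After the trend of each library on transcript length and GC was removed, it was 1.09 (adjusted p = 0.00956). Of clock proteins known as USP substrates, Cry2, a clock repressor, stood at 12.5, 13.6 and 14.9 FPKM in BT and 6.28, 7.27 and 6.78 FPKM in HFD libraries and also rose (0.91 ± 0.11, adjusted p = 0.00612 by limma). Cry1, its paralog, and Per1, the period gene whose protein USP2 is known to act on, differed by 0.38 and 0.51 (adjusted p = 0.136 and 0.238). The labels give no time of day for the sampling. Usp21, a relative of Usp2 that acts on histones and on signalling proteins, behaved otherwise. It stood at 11.5, 11.1 and 11.6 FPKM in BT and at 11.1, 14.6 and 12.7 FPKM in HFD libraries. These values overlap, with a change of -0.15 ± 0.12 (adjusted p = 0.420) and a 95% interval of -0.42 to 0.12. The intervals of Usp2 and Usp21 do not meet, but the difference between the changes was not tested.

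**Figure D2:**
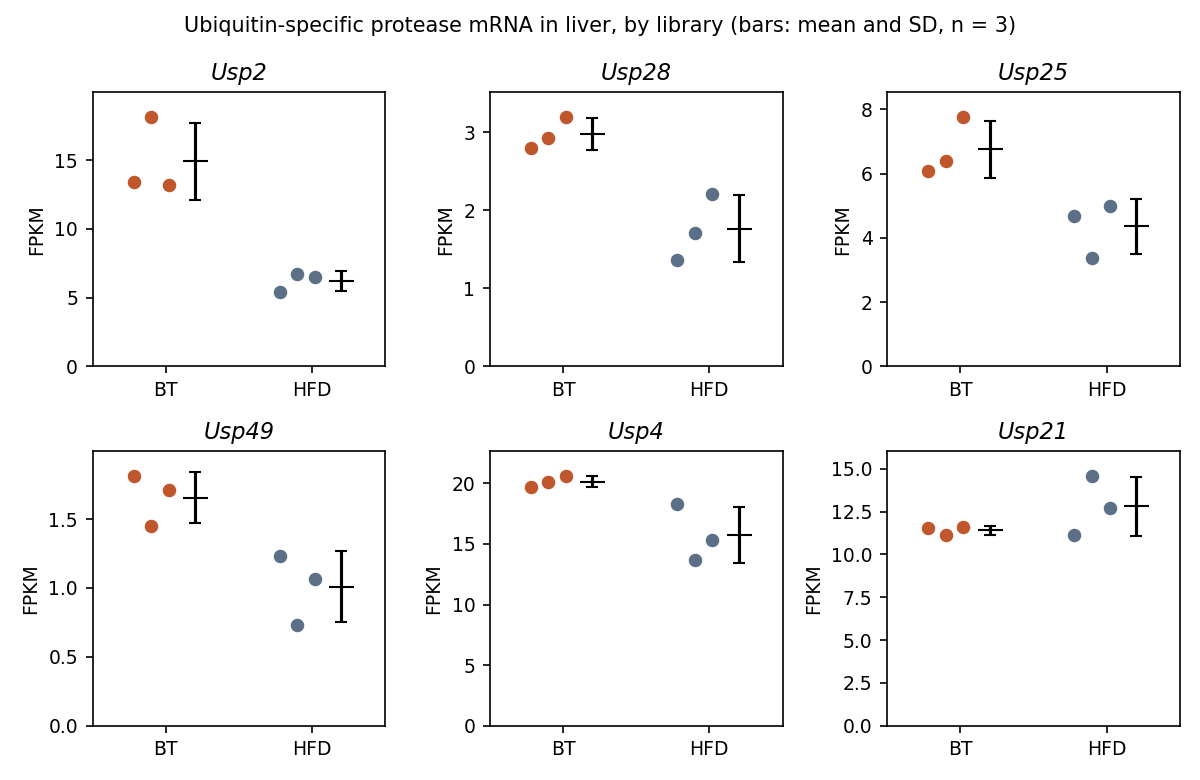
FPKM of 6 USPs in each BT and HFD library, with mean and SD at the right of each group (n = 3). For Usp2 the lowest BT value is 13.2 FPKM and the highest HFD value 6.75 FPKM, while for Usp21 the groups overlap.

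The members known for p53 and genome maintenance were Usp7, Usp28, Usp47, Usp1, Usp42, Usp24, Usp45 and Usp37. Of these 8, 1 rose and 0 fell, against 6.01% and 7.33% of all genes tested. Changes of the 8 ran from 0.17 to 0.54, all positive, with a median of 0.29. Usp28 (chr9:48985375-49042517), which is tied to the DNA damage response and stabilizes MYC, was at 2.80, 2.93 and 3.20 FPKM in BT libraries, against 1.36, 1.71 and 2.21 FPKM in HFD libraries. Its groups did not overlap, although HFD replicate 3 came nearest to the BT values. The means were 2.98 ± 0.201 FPKM in BT and 1.76 ± 0.428 FPKM in HFD (SD, n = 3 each), and the log2(FPKM + 1) change was 0.54 ± 0.14 (adjusted p = 0.0431 by limma). The pseudocount understates this change: with 0.1 in place of 1 it was 0.75. Usp28 passed in 6 of the 14 alternatives in which it was tested. Without HFD replicate 1, HFD replicate 2, BT replicate 1, BT replicate 2 or BT replicate 3 the adjusted p was 0.0864, 0.102, 0.121, 0.115 and 0.116, and after the trend on length and GC was removed it was 0.0800. Usp7, the protease of MDM2 and p53 and the most abundant member, was at 22.6, 25.3 and 28.2 FPKM in BT and 20.3, 17.3 and 24.0 FPKM in HFD libraries. HFD replicate 3 exceeded BT replicate 1, and the change of 0.30 ± 0.14 did not pass (adjusted p = 0.178). Usp47, its relative, which acts in base excision repair, averaged 16.0 ± 0.682 FPKM in BT and 13.4 ± 1.20 FPKM in HFD, without overlap (change 0.24, adjusted p = 0.161). Usp24, Usp42 and Usp45, which act on p53 or on repair proteins, were also without overlap, at 1.25, 1.30 and 1.31 times the HFD mean (adjusted p = 0.156, 0.168 and 0.136). Usp1, the Fanconi anaemia pathway protease, averaged 4.28 ± 0.176 FPKM in BT and 3.73 ± 0.760 FPKM in HFD. Usp37, known for acting on cyclin A, averaged 1.26 ± 0.159 FPKM in BT and 0.967 ± 0.278 FPKM in HFD. Both overlapped between the diets.

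Usp25, the closest paralog of Usp28 and a regulator of TRAF signalling, came nearest to the threshold among the members that missed it. It was at 6.09, 6.41 and 7.76 FPKM in BT and at 4.69, 3.38 and 5.01 FPKM in HFD libraries. All BT values were above all HFD values. On the log2(FPKM + 1) scale the change of 0.54 ± 0.15 was as large as that of Usp28 (adjusted p = 0.0513 by limma). The paralogs thus lay on either side of the threshold with changes of the same size on that scale. With a pseudocount of 0.1 the changes were 0.63 for Usp25 and 0.75 for Usp28. The adjusted p of Usp25 was under 0.05 without HFD replicate 3 (0.0455), with median-of-ratios scaling (0.0472) and with a filter of 5 FPKM (0.0464). It was 0.0666 and 0.112 without HFD replicates 1 and 2, and 0.119, 0.117 and 0.144 without BT replicates 1, 2 and 3. After the trend on length and GC was removed it was 0.0826.

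The other signalling members were Usp4, Usp15, Usp9x, Usp34, Usp38, Usp12 and Usp46. With Usp25 these 8 had a median change of 0.28, and 0 passed, against 13.3% of all genes tested. Of the 8, 4 were higher and 0 lower at an unadjusted p under 0.05, against 18.1% and 14.4% of all genes tested. Among genes of at least 3000 bases, the length of all 8, 1443 of 5771 were higher at that p. Usp4, which removes ubiquitin from a TGF-beta receptor, was at 19.7, 20.2 and 20.6 FPKM in BT and 18.3, 13.7 and 15.3 FPKM in HFD libraries. The BT values were tightly grouped above the HFD values, with a change of 0.35 ± 0.12 (adjusted p = 0.0902). Without HFD replicate 1 it passed (0.45, adjusted p = 0.0377), and without any of the other 5 libraries the adjusted p was 0.142 to 0.204. Its paralog Usp15, which acts on SMAD proteins, was at 10.3, 10.3 and 11.9 FPKM in BT and 9.45, 8.01 and 11.7 FPKM in HFD libraries, which overlap (0.15, adjusted p = 0.488). Usp34, a giant protease of the Wnt pathway, was at 8.94, 9.28 and 9.05 FPKM in BT and 6.63, 4.04 and 8.34 FPKM in HFD libraries. The BT libraries were nearly level and the HFD libraries spread widely (0.51 ± 0.21, adjusted p = 0.128), and without HFD replicate 3 it passed (0.70, adjusted p = 0.0455). Without HFD replicate 2 the change was 0.26 (adjusted p = 0.234), and after the trend on length and GC was removed 0.22 (adjusted p = 0.368). Usp9x, an X-linked protease of many signalling proteins, spread even more in HFD, at 15.1, 9.54 and 17.9 FPKM, against 15.9, 15.7 and 18.8 FPKM in BT. HFD replicate 2 was the low library in both. Usp46 and Usp12 are near copies activated by the WD-repeat protein WDR48. Usp46 was at 2.102, 2.15 and 2.08 FPKM in BT and 1.601, 1.33 and 1.69 FPKM in HFD libraries without overlap (0.30, adjusted p = 0.127). Usp12 was at 4.45, 4.38 and 5.42 FPKM in BT and 4.04, 3.15 and 4.95 FPKM in HFD libraries with overlap (0.20, adjusted p = 0.407). Usp38, linked to interferon and NF-kappaB signalling, averaged 5.37 ± 0.246 FPKM in BT and 4.45 ± 0.790 FPKM in HFD.

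The 7 members that act on histones or in the nucleolus had the lowest median change, -0.01, with 3 positive and 4 negative. Of these 7, 0 passed, against 13.3% of all genes tested. Higher at an unadjusted p under 0.05 was 1, and lower 0, against 18.1% and 14.4% of all genes tested. Usp49, a protease of ubiquitinated histones, was at 1.81, 1.45 and 1.71 FPKM in BT and 1.23, 0.733 and 1.06 FPKM in HFD libraries. The groups did not overlap and the change was 0.41 ± 0.14 (adjusted p = 0.0888). Exons of Gm20517 and Tomm6 cover 52.3% of its exon bases, so this value is uncertain. Usp22, the deubiquitinase of the SAGA coactivator, was at 8.20, 7.19 and 7.94 FPKM in BT and 6.55, 6.12 and 7.06 FPKM in HFD libraries. The gap between the groups was small and the change of 0.21 did not pass (adjusted p = 0.217). Usp36, a nucleolar protease, averaged 5.99 ± 0.765 FPKM in BT and 4.90 ± 0.977 FPKM in HFD. Usp48, a nuclear protease that acts on a BRCA1 mark of histones and the second most abundant member, was at 15.3, 18.2 and 21.9 FPKM in BT and 17.2, 21.04 and 22.6 FPKM in HFD libraries. Its groups overlap over most of their range (-0.13, adjusted p = 0.568). Usp16 and Usp3, which remove ubiquitin from histones, changed by -0.08 and -0.01, with 95% intervals of -0.40 to 0.24 and -0.33 to 0.31.

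Usp5, which takes apart free ubiquitin chains, and Usp14, which trims chains at the proteasome, did not pass. The 95% intervals of both changes included 0. Usp5 was at 20.03, 19.1 and 22.9 FPKM in BT and 18.9, 15.1 and 18.1 FPKM in HFD libraries. The BT values were all higher, the lowest by a narrow margin (0.24, adjusted p = 0.206). Usp14 was at 18.5, 17.5 and 20.8 FPKM in BT and 21.3, 16.4 and 20.8 FPKM in HFD libraries. These overlap almost wholly (-0.03, adjusted p = 0.881, 95% interval -0.33 to 0.26). Exons of Thoc1 cover 26.0% of its exon bases.

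Of 7 members of organelles and membranes all changes were positive, from 0.01 to 0.44, and 0 passed, against 13.3% of all genes tested. Higher at an unadjusted p under 0.05 were 2, and lower 0, against 18.1% and 14.4% of all genes tested. Usp19, which is anchored in the endoplasmic reticulum, was at 19.3, 18.8 and 18.5 FPKM in BT and 14.9, 13.8 and 17.0 FPKM in HFD libraries. The BT values were closely spaced and all above the HFD values (0.30 ± 0.11, adjusted p = 0.101). Usp30, which opposes the tagging of mitochondria for removal, was at 6.26, 6.08 and 5.87 FPKM in BT and 5.45, 4.57 and 5.08 FPKM in HFD libraries, again without overlap (0.23, adjusted p = 0.185). Usp32, a protease of the Golgi and late endosomes, averaged 5.03 ± 1.08 FPKM in BT and 3.44 ± 0.780 FPKM in HFD (0.44, adjusted p = 0.123). Its lowest BT and highest HFD values both round to 4.27 FPKM. Usp20, which stabilizes HMG-CoA reductase, was at 3.44, 3.11 and 4.01 FPKM in BT and 2.14, 3.26 and 2.62 FPKM in HFD libraries, with overlap at HFD replicate 2 (0.30, adjusted p = 0.193). Its paralog Usp33, a protease of adrenergic receptors, averaged 13.8 ± 0.495 FPKM in BT and 12.0 ± 1.81 FPKM in HFD (0.20, adjusted p = 0.294). Usp8, which acts on receptors in endosomes, averaged 13.04 ± 0.704 FPKM in BT and 11.6 ± 1.34 FPKM in HFD. Usp35 spread from 0.981 to 1.91 FPKM in BT and from 0.937 to 1.92 FPKM in HFD (0.01, adjusted p = 0.988). Of the remaining members, Usp39, a splicing factor that lacks protease activity, averaged 8.20 ± 0.443 FPKM in BT and 7.30 ± 0.632 FPKM in HFD (0.15, adjusted p = 0.376). Usp40, whose role is little known, was at 10.2, 8.49 and 9.43 FPKM in BT and 7.70, 5.53 and 8.06 FPKM in HFD libraries, without overlap (0.37, adjusted p = 0.127).

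Transcript length was examined beside the direction of change. USP transcripts are long: the longest annotated transcript had a median of 4745 bases over the members, against 3245 over genes tested, and 33 of the 35 had at least 3000. Over all genes the median change was -0.31 for transcripts under 1500 bases, -0.01 for 1500 up to 3000, 0.12 for 3000 up to 5000 and 0.23 for 5000 and over. The members' medians were 0.23 in the class of 3000 up to 5000 bases (18 members) and 0.29 in that of 5000 and over (15 members). Among the 5771 genes of at least 3000 bases, 10.3% were called, 8.20% higher and 2.08% lower, and 74.4% of changes were positive. In 32.1% of them BT lay above HFD without overlap and in 6.79% below. At an unadjusted p under 0.05, 1443 of them were higher and 334 lower. The 33 members of that length had 2 called higher, 29 positive and 17 without overlap, and 11 higher at an unadjusted p under 0.05. No test was made of whether USPs differ from genes of like length. After removal of the trend on length and GC in each library, the median change of the members was 0.13, against 0.05 over all genes, 27 of 35 were positive, and Usp2 alone passed, where 8.68% of all genes were called. Across the 35 members the change and log2 length had a Pearson r of 0.16 and a Spearman rho of 0.29. Over the 10403 genes with a transcript the values were 0.41 and 0.45. Genes are not independent replicates and share the same 6 libraries.

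**Figure D3:**
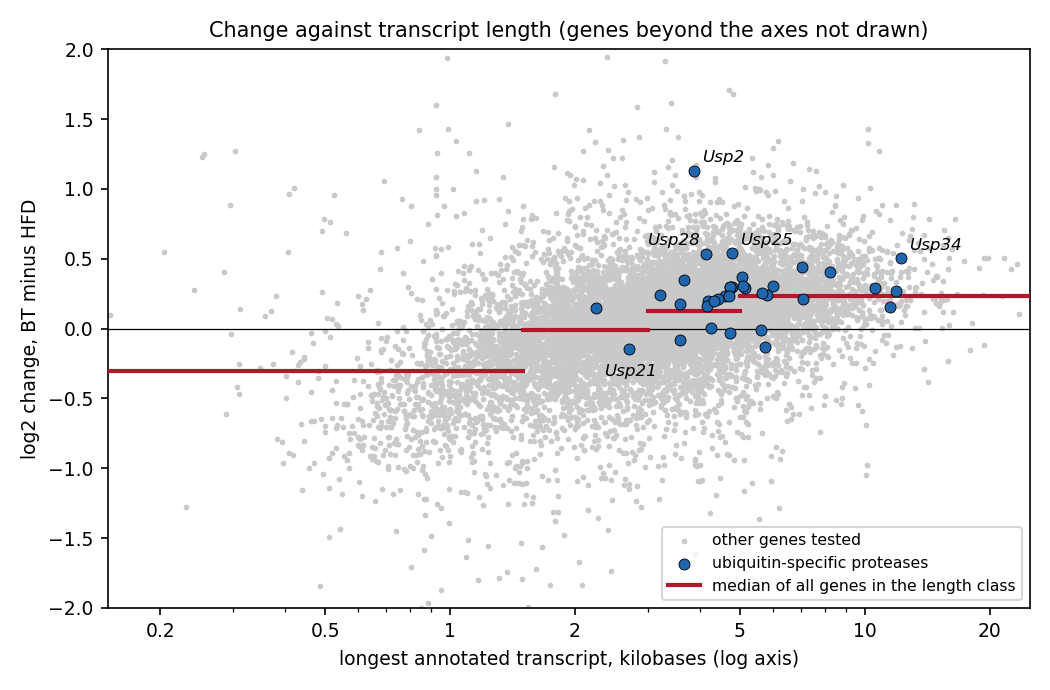
Log2 change (BT minus HFD) against the longest annotated transcript in kilobases (log axis) for genes tested (grey), with USPs in blue and red bars for the median of all genes in 4 length classes. The class medians climb with length up to 0.23 in the longest class, and Usp2 at 1.13 lies far above them.

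The members' level also varied among libraries of the same diet. Summed over the 35 members, the level was 337, 340 and 364 FPKM in BT replicates 1 to 3 and 294, 262 and 329 FPKM in HFD replicates 1 to 3. HFD replicate 3 lay close to the BT libraries, and HFD replicate 2 lay lowest. Of the 35 members, 25 had their lowest value in HFD replicate 2, and 15 had their highest in BT replicate 3. Measured from each gene's mean over the 6 libraries on the log2(FPKM + 1) scale, the median member stood at 0.11, 0.07 and 0.18 in the BT libraries and at -0.11, -0.28 and 0.04 in the HFD libraries. Genes of at least 3000 bases followed the same order in HFD, at -0.08, -0.19 and 0.02, and genes under 1500 bases stood at 0.09, 0.32 and 0.10. Without HFD replicate 2 the median change of the members was 0.17 and 1 passed, and without HFD replicate 3 it was 0.32 and 4 passed (Usp2, Usp28, Usp25 and Usp34). Over all genes these settings gave medians of 0.04 and 0.09, with 621 and 1536 of 10476 called. Without BT replicate 1, BT replicate 2 or BT replicate 3, 1 member passed each time, and 173, 324 and 589 of all genes. Since the letter in the library codes changes with the diet, effects of diet and of library set cannot be told apart.

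**Figure D4:**
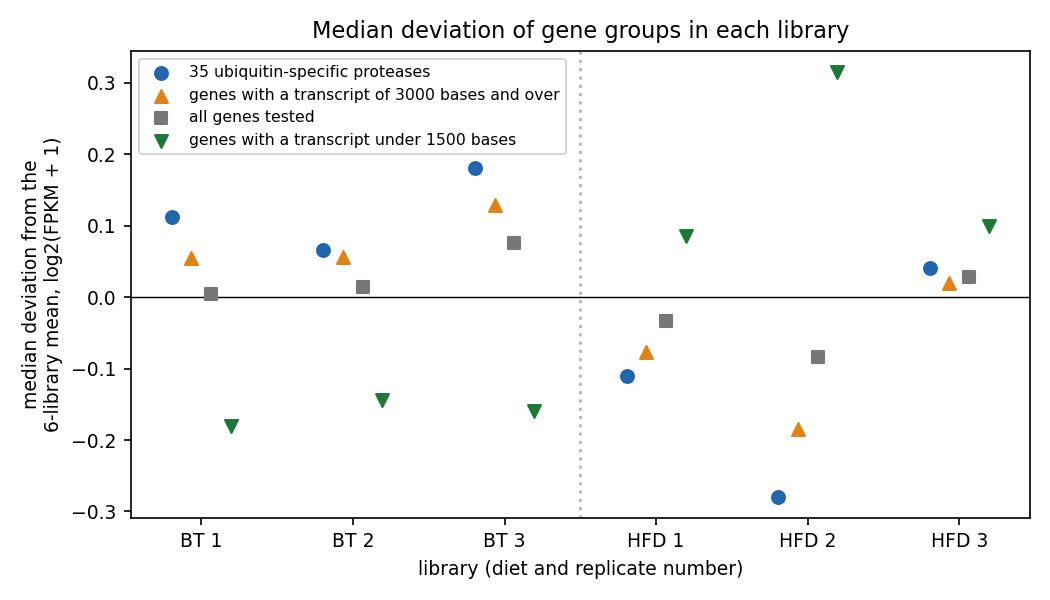
Median deviation from the 6-library mean, on the log2(FPKM + 1) scale, of the USPs and of genes by transcript length in each BT and HFD library. The USP median is lowest in HFD replicate 2, at -0.28, where genes under 1500 bases are highest, at 0.32.

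Members just inside the level of 1 FPKM were Usp37 (1.11 FPKM), Usp49 (1.33 FPKM) and Usp35 (1.42 FPKM), and those just outside were Usp31 (0.769 FPKM), Usp53 (0.766 FPKM) and Usp50 (0.559 FPKM). Usp31 was at 0.932, 0.941 and 0.977 FPKM in BT and at 0.452, 0.546 and 0.768 FPKM in HFD libraries, without overlap. In a fit with no filter it did not pass (0.30, adjusted p = 0.118). Usp53, whose human counterpart is known for inherited cholestasis, was at 1.00, 0.895 and 0.831 FPKM in BT and 0.760, 0.230 and 0.878 FPKM in HFD libraries, with overlap. Usp50 ran the other way, at 0.256, 0.402 and 0.248 FPKM in BT and 0.393, 1.36 and 0.702 FPKM in HFD libraries, and the values overlap. Usp11, the paralog of Usp4 and Usp15, averaged 0.476 FPKM over all 6 libraries. Usp54, Usp27x, Usp43, Usp13, Usp9y and Usp29 averaged under 0.3 FPKM, and Usp44, Usp26 and Usp51 are listed at 0 in every library. Of the 10 with a value above 0, 0 passed in the limma fit with no filter, with 2 at an unadjusted p under 0.05 (Usp31 and Usp50). Usp18, an interferon-induced protease of ISG15 that is left out of the members, changed by 0.01 (adjusted p = 0.984).

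Lists of genes around the family were examined next. For each list the shares over all genes tested are 6.01% higher and 7.33% lower. At an unadjusted p under 0.05 they are 18.1% and 14.4%. Of 36 tested genes of other deubiquitinase families and their relatives, 0 rose and 1 fell, with a median change of 0.09 (9 at an unadjusted p under 0.05, 4 of them lower). That gene, Uchl3, a small hydrolase of ubiquitin tails, was at 16.2, 15.5 and 14.6 FPKM in BT and 19.8, 22.4 and 22.1 FPKM in HFD libraries (-0.45 ± 0.10, adjusted p = 0.0282). Of 16 USP partners tested, 1 rose and 0 fell (4 and 0 at an unadjusted p under 0.05), with a median change of 0.14. This was Atxn7, which anchors the USP22 module to SAGA, at 6.47, 6.31 and 7.07 FPKM in BT and 3.15, 2.82 and 5.10 FPKM in HFD libraries (0.73 ± 0.18, adjusted p = 0.0345). The other USP22 subunit genes Atxn7l3 and Eny2 changed by -0.04 and -0.10 (adjusted p = 0.819 and 0.548). Wdr48, the activator of USP1, USP12 and USP46, averaged 7.23 ± 0.268 FPKM in BT and 5.41 ± 0.372 FPKM in HFD, without overlap (0.36, adjusted p = 0.0561). Of 22 substrates or regulated proteins known for USPs, 3 rose and 1 fell, against 6.01% and 7.33% of all genes tested, with a median of 0.34 (10 at an unadjusted p under 0.05, 1 of them lower). Besides Cry2, Egfr, the epidermal growth factor receptor on which USP8 acts, rose to 29.6, 46.1 and 22.4 FPKM in BT libraries, against 18.1, 10.9 and 8.42 FPKM in HFD libraries (1.33 ± 0.30, adjusted p = 0.0284). Insig2, a sterol-sensing partner of HMG-CoA reductase, fell to 53.2, 51.7 and 101 FPKM in BT libraries, against 139, 110 and 189 FPKM in HFD libraries (-1.11 ± 0.28, adjusted p = 0.0372). Mdm2 changed by -0.02 (adjusted p = 0.926). Mdm4 was at 16.5, 16.4 and 16.6 FPKM in BT and 7.74, 4.34 and 13.5 FPKM in HFD libraries, without overlap. Its change of 0.996 ± 0.302 did not pass (adjusted p = 0.0603 by limma). These are mRNA levels, whereas USPs act on the proteins.

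Among 35 genes of ubiquitin itself and its activation and conjugation, 1 rose and 6 fell, against 6.01% and 7.33% of all genes tested, with a median change of -0.02. At an unadjusted p under 0.05, 12 differed, 10 of them lower, against 18.1% of all genes tested higher and 14.4% lower. Over all 5 lists together 5 rose and 8 fell, and with TPM scaling 5 rose and 3 fell. Rps27a, which encodes ubiquitin fused to a ribosomal protein, was at 139, 141 and 143 FPKM in BT libraries, against 199.6, 205 and 175 FPKM in HFD libraries. It fell by 0.45 (adjusted p = 0.0273), and its longest transcript has 928 bases. Ubb, a polyubiquitin gene, averaged 326 ± 39.5 FPKM in BT and 302 ± 34.0 FPKM in HFD and did not pass (adjusted p = 0.591). The conjugating enzyme genes Ube2s, Ube2v2, Ube2k and Ube2a fell by 0.71, 0.59, 0.50 and 0.47 (adjusted p = 0.0112 to 0.0316). Their longest transcripts have 4093, 4207, 4893 and 1732 bases. Of 6 SUMO proteases tested, 0 passed by limma, against 13.3% of all genes tested. The smallest adjusted p was 0.0552, with 2 at an unadjusted p under 0.05, and the median change was 0.15.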

How the data were processed

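Liver mRNA libraries were prepared with a TruSeq kit, per the labels' protocols. The deposited table gives FPKM for 23474 Ensembl mouse genes, 1 column per library. Tools listed, without roles, per the submitters' processing notes are Cufflinks 2.1.1, STAR 2.4.0 and CASAVA 1.8.2. Genome build, annotation and strand setting: not given in the sources used here. Names, lengths, GC content and coordinates (1-based) come from GENCODE M21 (GRCm38), which may differ from the authors' build, and named 22671 identifiers.

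Groups and replicate numbers were taken from sample titles. log2(FPKM + 1) was fitted with limma 3.58.1 in R 4.3.3 (variance trend, two-sided, Benjamini-Hochberg over the 10476 genes averaging 1 FPKM or more, threshold 0.05, 4 residual degrees of freedom). Changes are BT minus HFD and understate those of low genes. An exact permutation test cannot pass with 3 against 3 libraries, so none was run. The fit was tested on simulated data. The members and lists were chosen with earlier results of these data known.

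Values in every library were given for members past the threshold, the 3 most abundant, the 3 nearest below the threshold, and the paralogs of members that passed. Values of others were added after they were seen. Genes of the fixed lists were named where they passed, and a few others after their values were seen. Some genes counted in these lists are not reported here by name. Depth was estimated from the lowest values (FPKM times kilobases between 0.03 and 0.1) in genes with 1 transcript over 1000 bases. Figures were drawn with matplotlib 3.10.9. Alternatives were a pseudocount of 0.1, no filter, a filter of 5 FPKM, TPM and median-of-ratios scaling, removal of length and GC trends (natural splines, 5 degrees of freedom), no variance trend, a block on replicate number, and each library left out in turn.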

Additional observations from a re-analysis of the deposited data

How the results depend on the processing

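Usp2 passed, as higher with BT, in all 15 alternatives run. The number of USPs called, 2 in the report, was 1 with no filter on low values, 1 with the length and GC trend removed, 3 with median-of-ratios scaling, 4 with a replicate block, 1 with the block and the trend removed together, and 1 to 4 when a library was left out. Over all genes the number called was 1398 of 10476 in the report, 545 of 17095 with no filter and 903 of 10403 with the trend removed. It was 1321 with median-of-ratios scaling, 1808 with a replicate block and 1008 with the block and the trend removed together. When a library was left out it was 173 to 1536, lowest without BT replicate 1. The median change of the members was 0.13 with the trend removed, with or without the replicate block, and 0.17 to 0.32 when a library was left out. Genes called in the fixed lists numbered 13, and 7 with no filter, 8 on rescaling to TPM, and 2 to 20 when a library was left out. Fewer libraries and, with no filter, more genes tested are part of these settings. Other causes were not tested.

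Of the 35 members 7 turned sign in some setting, and none of these was called in either setting. With the trend removed Usp37 stood at -0.0236, Usp9x at -0.0280 and Usp15 at -0.13, against 0.21, 0.27 and 0.15 in the report, and the same values held with the replicate block. With TPM scaling Usp16 stood at 0.00674, Usp14 at 0.0552 and Usp3 at 0.0723, and with median-of-ratios scaling Usp35 stood at -0.0345. When a library was left out, Usp16 ran from -0.19 to 0.0649, Usp14 from -0.15 to 0.0322, Usp3 from -0.11 to 0.0887 and Usp35 from -0.14 to 0.15. The cause was not tested.

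Same-numbered BT and HFD libraries correlated at 0.16, 0.10 and 0.15 in their deviations from the group means, each best with its own number. Libraries of different numbers correlated at -0.13 to 0.01. No label says that the numbers pair mice, so the block was run only as an alternative and was not used in the report. With it, Usp25 and Usp32 also passed (adjusted p = 0.0314 and 0.0476), and 1808 of 10476 genes were called, against 1398 without it. With 3 libraries a group, standard errors of 0.11 to 0.21 limit what could be called.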
